A study of Mus musculus with 4 samples.

Results

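The enzymes that carry nitrogen through citrulline, ornithine and arginine to urea and the polyamines were compared between mouse small intestine and colon. The 8 genes Otc, Cps1, Ass1, Asl, Arg2, Oat, Odc1 and Aldh18a1 were taken by their mm9 symbols from 20785 named genes, and uniquely placed reads on their exon blocks were counted in all 4 libraries. An exon block is a stretch of overlapping RefSeq exons. The mice were C57BL/6 (C57B6 in the study's text) aged 9 to 10 weeks, without any allele or treatment, and whole frozen tissue was used. The study's methods name jejunum for the small intestine and distal colon for the colon. The cDNA fragmented libraries, 1 per tissue, were made from polyadenylated RNA by oligo-dT primed SMART cDNA synthesis. The rRNA-depleted libraries, again 1 per tissue, were made by ligation to fragments of RNA from which ribosomal RNA had been removed, and they keep the strand. In the study's text both tissues came from the same individuals, but neither the mouse behind each library nor any pooling is given. With 1 library per tissue there is no replicate error within a protocol, so no test was made and the intervals given are 95% counting intervals only.

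Enterocytes of the small intestine are known for making citrulline. Glutamine and glutamate are turned into ornithine through Aldh18a1 and Oat, and Cps1 and Otc add carbamoyl phosphate to it within the mitochondrion. In liver the steps of Cps1 and Otc feed urea synthesis, in which Ass1 and Asl rebuild arginine and an arginase splits it. Odc1 takes ornithine out of this circuit as the entry to the polyamines.

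Cps1, Otc and Arg2 were past a 3-fold difference in small intestine in both protocols. Oat was past it in the cDNA fragmented libraries only and Aldh18a1 in the rRNA-depleted libraries only, although both lay on the small intestinal side in each protocol. Odc1 and Asl lay on the colon side, by less than 3-fold except for Asl in the rRNA-depleted libraries, and Ass1 could hardly be measured. By the 3-fold rule, modelled on that of the study, a gene was called when its RPKM (reads per kilobase of exon block per 1000000 uniquely placed reads) in 1 tissue was more than 3 times the RPKM in the other plus 1. A gene that stays at or below 3 RPKM in both tissues cannot be called, which left 7 of the 8 members and excluded Ass1.

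In the cDNA fragmented libraries 4 of these 7 members were called in small intestine and 0 in colon, against 5% and 5.87% of the 8954 genes that could be called. In the rRNA-depleted libraries 4 were called in small intestine and 1 in colon, against 5.27% and 9.17% of 10921 genes. In both protocols 3 were called in small intestine and 0 in colon, against 3.65% and 4.03% of the 8385 genes that could be called in both. With start points (distinct positions and strands) in place of reads 2 members were called in small intestine in the cDNA fragmented libraries, and 3 in small intestine and 1 in colon in the rRNA-depleted ones. The shares over all genes given above are by reads, and none was counted by start points to set beside these calls. The cDNA fragmented calls lost were Arg2 and Oat, with 98.4% and 91.9% of the possible start points in use in small intestine. Neither could have been called by this measure, even at full use. Over the 8 members the median log2 ratio, colon over small intestine, was -1.90 in the cDNA fragmented and -1.39 in the rRNA-depleted libraries, on the scale of log2 (RPKM + 0.1), and -0.86 and -1.07 with start points. Over all genes with reads it was 0.34 and 0.42 when counted by reads, and it was not taken by start points. The members ranged from -5.45 to 1.64 in the cDNA fragmented and from -4.72 to 2.49 in the rRNA-depleted libraries. The 1.64 is that of Ass1, with 15 and 60 reads, and the next highest was Asl at 0.53. Scaling by median-of-ratios size factors moved all log2 ratios by -0.40 and -0.34 in the same order. It put Odc1 on the small intestinal side in the cDNA fragmented libraries, at a ratio of 1.09.

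**Figure D1:**
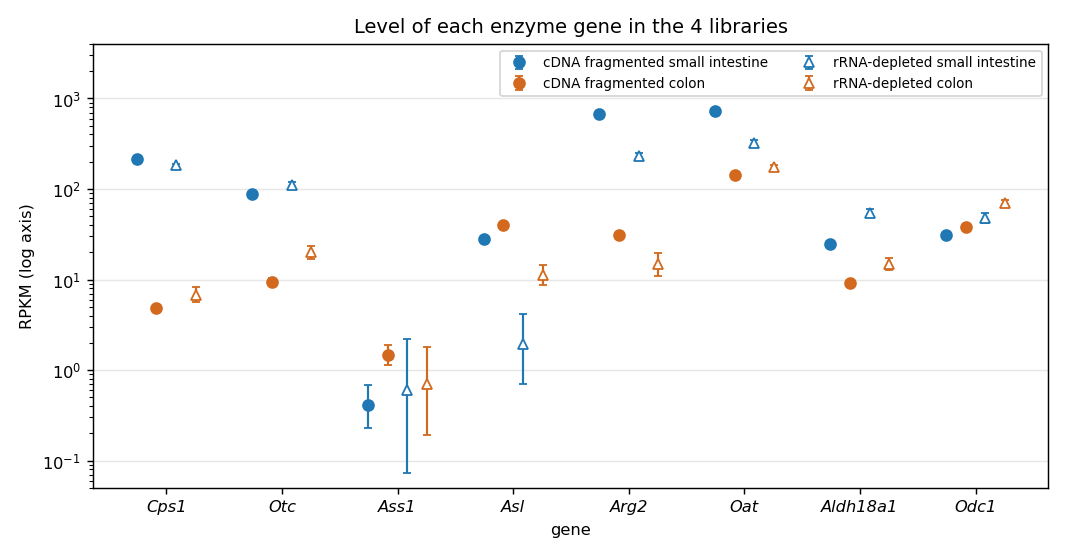
RPKM of the 8 genes (log axis) in the 4 libraries, with blue for small intestine, orange for colon, filled circles for cDNA fragmented and open triangles for rRNA-depleted libraries; bars are 95% counting intervals and stand for no spread between mice. Cps1, Otc, Arg2, Oat and Aldh18a1 sit higher in small intestine in both protocols, Asl and Odc1 sit higher in colon, and Ass1 stays below 2 RPKM in all 4 libraries.

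The depth was 22484041 and 24798934 uniquely placed reads for small intestine and colon in the cDNA fragmented libraries, and 2035386 and 3478387 in the rRNA-depleted ones. The epithelial markers were highest in the tissue of the label. Markers of small intestinal enterocytes summed to 40756 and 4493 RPKM in small intestine and colon by cDNA fragmentation and to 10019 and 562 RPKM after rRNA depletion, and the 4 colonic markers found summed to 392 and 55780, and to 108 and 7069 RPKM. Fabp2 made up most of the enterocyte sums by cDNA fragmentation, with 37853 and 4441 RPKM. Each of the other enterocyte markers differed there by a larger ratio. Each library also held reads of the other tissue's markers, and only Car1 in the cDNA fragmented small intestine library had 0. The 5 pancreatic acinar markers differed in opposite directions in the 2 protocols. Their sum was 0.5 RPKM in small intestine and 237 RPKM in colon in the cDNA fragmented libraries, with Cpa1, Pnlip and Prss2 at 0 reads in small intestine, but 1796 and 4.32 RPKM in the rRNA-depleted ones. A count of 0 allows up to 3 reads, or 0.133 per 1000000 reads in that small intestine library. Smooth muscle markers, all 5 of them, were higher in colon in both protocols, with sums of 224 and 931 RPKM and of 194 and 1745 RPKM. Leukocyte markers summed to 143 and 131 RPKM and to 38 and 56.3 RPKM, and markers of proliferating cells to 170 and 148 RPKM and to 144 and 113 RPKM. The single markers in these sums went different ways. In both protocols Ptprc and Cd3e were higher in small intestine and Lyz2 and Cd68 in colon, whereas Cd79a changed sides. Likewise Mki67 and Top2a were higher in small intestine and Mcm2 in colon in both protocols, whereas Pcna and Ccnb1 changed sides. Cps1 and Otc are also strong liver genes. The 6 hepatocyte markers summed to 5.35 and 69.4 RPKM by cDNA fragmentation and to 1.87 and 17.4 RPKM after rRNA depletion, with Ttr as the highest of them in each library, albumin (Alb) at 2 and 0 reads in the small intestine libraries and fibrinogen beta (Fgb) at 0 in all 4. The part of these cells in the results was not tested. In whole tissue, fewer cells of a type and less RNA per cell cannot be told apart. The cDNA fragmented small intestine library also differed from the others in sex-linked genes. Xist had 1751 reads in it and 31, 9 and 5 in the other libraries, and Eif2s3y, Kdm5d and Uty had 0 reads against at least 40. The cDNA fragmented libraries thus differed in sex-linked genes although the study names the same individuals for both tissues, and tissue and sex cannot be told apart in their comparison, whereas both rRNA-depleted libraries held reads of all 4 Y-linked genes examined.

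Cps1, carbamoyl phosphate synthetase of the mitochondrion, showed the largest difference of the 8 genes in both protocols. It lies on the plus strand at chr1:67169640-67277022 (mm9) with 38 exon blocks of 4704 bases in all. It had 22931 reads in small intestine and 566 in colon in the cDNA fragmented libraries, which is 217 RPKM (214 to 220) and 4.85 RPKM (4.46 to 5.27). In the rRNA-depleted libraries 1742 and 111 reads gave 182 RPKM (174 to 191) and 6.78 RPKM (5.58 to 8.17). Both small intestine libraries were high and both colon libraries low, with no overlap of the counting intervals. Small intestine exceeded colon by a ratio of 44.7 (41.1 to 48.7) by cDNA fragmentation and 26.8 (22.1 to 32.8) after rRNA depletion. Counted by start points in place of reads, these ratios were 12.7 and 10.4, with 89.3% and 14.4% of the possible start points in use in small intestine.

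The difference ran along the whole of Cps1. All 38 blocks were higher in small intestine in each protocol, with ratios of the blocks from 22.3 to 198 and a median of 42 in the cDNA fragmented libraries. The 198 is that of block 2, with 538 reads in small intestine and 3 in colon. In the rRNA-depleted libraries 27 blocks had reads in both tissues, with ratios from 4.27 to 66.6. Reads of the cDNA fragmented colon library lay more to the 3' end, with 42.6% of them in the last of 4 equal parts of the exon sequence, against 31.5% in small intestine. The rRNA-depleted libraries showed no such excess, with 25.1% in small intestine and 27% in colon.

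Otc, ornithine transcarbamylase, joins carbamoyl phosphate to ornithine and so makes citrulline. It lies on the plus strand at chrX:9829485-9898150 with 10 blocks of 2265 bases. There were 4529 reads in small intestine and 531 in colon by cDNA fragmentation, at 88.9 RPKM (86.4 to 91.6) and 9.45 RPKM (8.67 to 10.3). After rRNA depletion 505 and 158 reads gave 110 RPKM (100.2 to 119) and 20.1 RPKM (17.1 to 23.4). Small intestine was thus the higher tissue by a ratio of 9.41 (8.60 to 10.3) in the cDNA fragmented and 5.46 (4.56 to 6.57) in the rRNA-depleted libraries. All 10 blocks were higher in small intestine in each protocol. With reads of the last 1000 bases of exon sequence alone, the ratio became 17.4 by cDNA fragmentation, whereas after rRNA depletion it became 3.42 and was no longer called. With start points in place of reads the ratios were 4.57 and 3.40.

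The reads of Otc were unevenly placed in the rRNA-depleted libraries. With its exon sequence cut into 4 equal parts, the first held 74.3% (small intestine) and 71.5% (colon) of all reads, but 35.3% and 35.2% in the cDNA fragmented libraries. Part of this came from a window in the coding part of block 2, at chrX:9841993-9842027, shown here in mm9 because 101 of the 505 small intestine reads and 27 of the 158 colon reads fell on it, the most of any start point in both tissues. The capital marks the base where these reads began.
Otc window: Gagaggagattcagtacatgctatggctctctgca
In each cDNA fragmented library 1 read began there. Without this start point the rRNA-depleted ratio of Otc was 5.27, close to the 5.46 with it. The fullest start point of Cps1, at chr1:67214817-67214851 in the coding part of block 16, took less of its gene, with 88 of 1742 reads in small intestine and 4 of 111 in colon.
Cps1 window: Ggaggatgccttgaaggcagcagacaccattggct
Counting intervals treat each read as independent, which reads that share a start may not be.

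**Figure D2:**
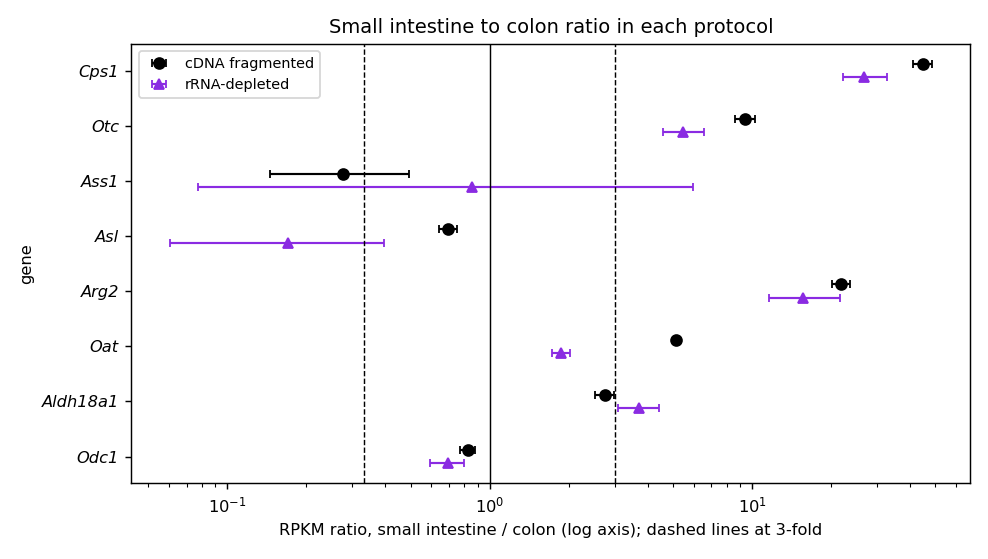
Ratio of RPKM in small intestine to that in colon (log axis) for the 8 genes by cDNA fragmentation (black circles) and after rRNA depletion (purple triangles), with 95% counting intervals and dashed lines at 3-fold in either direction. Cps1, Arg2 and Otc lie to the right of the line in both protocols, Oat and Aldh18a1 lie on different sides of it, and the interval of Ass1 is the widest.

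Arg2, the arginase of the mitochondrion, splits arginine into urea and ornithine outside the liver. Its own blocks lie on the plus strand at chr12:80231775-80253045, 7 blocks of 941 bases. It was among the most abundant members in small intestine. Small intestine had 14334 reads and colon 724 in the cDNA fragmented libraries, at 677 RPKM (666 to 689) and 31.0 RPKM (28.8 to 33.4). The rRNA-depleted libraries held 440 and 48 reads, at 230 RPKM (209 to 252) and 14.7 RPKM (10.8 to 19.4). The ratio was 21.8 (20.3 to 23.6) by cDNA fragmentation and 15.7 (11.6 to 21.6) after rRNA depletion, and these intervals overlapped. With start points in place of reads the ratios were 2.84, which was not called, and 7.80. By cDNA fragmentation small intestine used 1384 of the 1406 possible start points, and colon 511. Beside that colon number even full use would not have reached a call, so this measure could not decide it. Every one of the 7 blocks in the cDNA fragmented libraries, and each of the 6 with at least 5 reads in the rRNA-depleted libraries, was higher in small intestine.

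The last exon block of Arg2, at chr12:80256813-80257558, overlaps the end of Vti1b on the other strand and was therefore left out of these values. The strand of the rRNA-depleted reads separates the genes. On the Arg2 strand small intestine had 123 reads and colon 31, a ratio of 6.78 (4.54 to 10.4), and on the Vti1b strand there were 25 and 61. Arg2 was thus the higher strand in small intestine, with 83.1% of the reads, and the lower in colon, with 33.7%. Added to the other blocks, all reads of this block, those on the Vti1b strand included, lowered the rRNA-depleted ratio of Arg2 from 15.7 to 7.18. The cDNA fragmented ratio, whose reads do not keep the strand, went from 21.8 to 16.9. Both calls stayed.

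Ass1, argininosuccinate synthase, joins citrulline and aspartate, and its level could not be read from these files. At chr2:31325790-31376190, on the plus strand, it has 16 blocks of 1631 bases. It had 15 reads in small intestine and 60 in colon by cDNA fragmentation, at 0.409 RPKM (0.229 to 0.675) and 1.48 RPKM (1.13 to 1.91). After rRNA depletion 2 and 4 reads gave 0.603 RPKM (0.0730 to 2.18) and 0.705 RPKM (0.192 to 1.80). The colon was the higher tissue by a ratio of 3.63 (2.03 to 6.88) in the cDNA fragmented libraries, and no difference was detectable after rRNA depletion, where small intestine over colon gave 0.855 (0.0773 to 5.96). Of the cDNA fragmented reads, 11 of 15 in small intestine and 36 of 60 in colon carried 3 color mismatches, the most allowed.

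Most of the exon sequence of Ass1 is not unique. Only 30.1% of the 1090 windows of 35 bases within its blocks occur once among all exon blocks, and 10.6% when 1 substitution is allowed. The other windows match Gm5424, a predicted gene in 1 exon block at chr10:61533770-61535319. Of the 16 blocks of Ass1, 13 have a counterpart in Gm5424 and match it at 99.4% of 1231 bases. A read of 35 colors from a window that both genes hold fits them equally and was removed. Reads that were kept on Gm5424 numbered 93 in small intestine and 423 in colon by cDNA fragmentation, and 4 and 43 after rRNA depletion. Colon was the higher tissue for Gm5424 by ratios of 4.12 (3.29 to 5.22) and 6.29 (2.29 to 24.1). Which of the 2 genes these reads came from cannot be told apart. With only the windows of Ass1 that stay unique with 1 substitution, 4 and 33 reads by cDNA fragmentation, small intestine over colon was 0.134 in place of 0.276. Of the kept Ass1 reads, 37 of the 60 in cDNA fragmented colon and 7 of the 15 in small intestine lay in the last block.

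**Figure D3:**
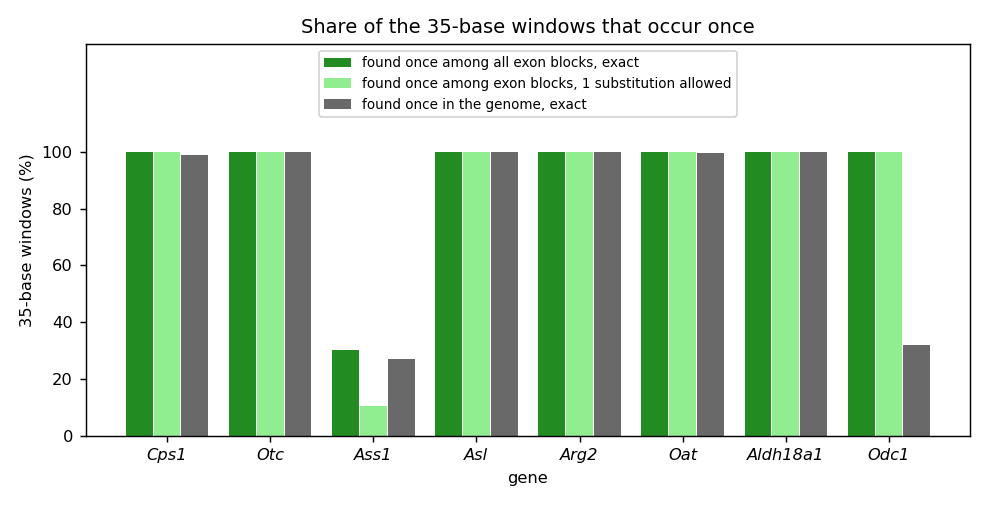
Share of all 35-base windows of each gene that occur once among exon blocks, exactly (dark green) or with 1 substitution allowed (light green), and once in the genome (grey). Ass1 falls to 30.1% and 10.6% among exons, Odc1 falls to 31.9% in the genome only, and the other 6 genes stay at 99.0% or above.

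Asl, argininosuccinate lyase, releases arginine and fumarate, and it did not follow the genes of citrulline synthesis. It lies on the minus strand at chr5:130487373-130500201, with 17 short blocks of 1529 bases. By cDNA fragmentation there were 953 reads in small intestine and 1516 in colon, at 27.7 RPKM (26 to 29.5) and 40.0 RPKM (38 to 42.1). The rRNA-depleted libraries held 6 and 60 reads only, at 1.93 RPKM (0.708 to 4.20) and 11.3 RPKM (8.61 to 14.5). Colon was higher in both protocols, by a ratio of 1.44 (1.33 to 1.57) in the first and 5.85 (2.54 to 16.6) in the second. The call in colon rests on 6 reads in small intestine. In the cDNA fragmented libraries 14 of the 16 blocks with at least 5 reads were higher in colon and 2 in small intestine.

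Oat, ornithine aminotransferase, links ornithine to the semialdehyde of glutamate, and it was the most abundant of the 8 genes by RPKM in all 4 libraries. It lies on the minus strand at chr7:139749158-139768081, with 10 blocks of 2155 bases. Small intestine had 35380 reads and colon 7601 by cDNA fragmentation, at 730 RPKM (723 to 738) and 142 RPKM (139 to 145). In the rRNA-depleted libraries 1431 and 1306 reads gave 326 RPKM (310 to 344) and 174 RPKM (165 to 184). Small intestine was higher in both, but by a ratio of 5.13 (5.01 to 5.26) in the cDNA fragmented and only 1.87 (1.74 to 2.02) in the rRNA-depleted libraries. With start points in place of reads the first ratio was 1.43 and not called. By cDNA fragmentation 3336 of the 3630 possible start points were in use in small intestine, and 2445 in colon. Even full use would not have reached a call, so this measure could not decide it. The ratios of the protocols differed by a factor of 2.74, beyond their counting intervals, and this factor cannot be set against a spread between mice. The difference of the protocols lay mainly in small intestine, where the level after rRNA depletion was 0.447 times that by cDNA fragmentation, against 1.22 times in colon. All 10 blocks were higher in small intestine by cDNA fragmentation, with ratios from 4.23 to 6.20, and 9 of 10 after rRNA depletion, with ratios from 0.854 to 2.47.

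Aldh18a1 makes that semialdehyde from glutamate and is the entry of glutamate carbon to ornithine and proline. It lies on the minus strand at chr19:40624748-40662953, with 19 blocks of 3526 bases. There were 1965 reads in small intestine and 790 in colon by cDNA fragmentation, at 24.8 RPKM (23.7 to 25.9) and 9.03 RPKM (8.42 to 9.69). After rRNA depletion 394 and 182 reads gave 54.9 RPKM (49.6 to 60.6) and 14.8 RPKM (12.8 to 17.2). The ratio was 2.74 (2.53 to 2.98) in the first and 3.70 (3.10 to 4.43) in the second protocol, so the gene lay near the 3-fold line in both and just past it in the latter. With start points in place of reads the second ratio was 2.70 and no longer called, and with size factors the first was 3.63 and called. Of 18 blocks with at least 5 reads by cDNA fragmentation all were higher in small intestine, and 14 of 15 were so after rRNA depletion. The last block alone held 57.5% and 59.6% of the cDNA fragmented reads, and 45.7% and 46.7% of the rRNA-depleted reads.

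Odc1, ornithine decarboxylase, makes putrescine and was somewhat higher in colon. It lies on the plus strand at chr12:17551679-17558308, with 12 blocks of 2547 bases. Small intestine had 1773 and colon 2374 reads in the cDNA fragmented libraries, at 31.0 RPKM (29.5 to 32.4) and 37.6 RPKM (36.1 to 39.1). The rRNA-depleted libraries held 250 and 618, at 48.2 RPKM (42.4 to 54.6) and 69.8 RPKM (64.4 to 75.5). Colon was higher by a ratio of 1.21 (1.14 to 1.29) in the first and 1.45 (1.25 to 1.68) in the second, so a 3-fold difference lies outside both counting intervals. Small intestine over colon became 1.09 with size factors by cDNA fragmentation and 1.02 with start points after rRNA depletion, which changed the side. The side was not shared by all blocks, of which 9 of 11 were higher in colon by cDNA fragmentation and 7 of 11 after rRNA depletion.

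The exon sequence of Odc1 has many copies in the mouse genome outside RefSeq exons. All of its 35-base windows occur once among exon blocks, but only 31.9% occur once in the genome, so a read from a transcribed copy would have been placed on Odc1. The copy that shares most windows lies at chr5:96402944-96404978, with 868 windows in common. The coding block 11 of Odc1 at chr12:17556669-17556883 and its counterpart at chr5:96404286-96404500 differ at 3 of 215 bases, in capitals here.
Odc1: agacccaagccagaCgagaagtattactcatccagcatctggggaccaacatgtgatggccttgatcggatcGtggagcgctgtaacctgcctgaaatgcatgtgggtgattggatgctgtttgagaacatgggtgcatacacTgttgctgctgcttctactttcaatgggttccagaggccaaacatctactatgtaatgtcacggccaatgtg
Odc1 copy: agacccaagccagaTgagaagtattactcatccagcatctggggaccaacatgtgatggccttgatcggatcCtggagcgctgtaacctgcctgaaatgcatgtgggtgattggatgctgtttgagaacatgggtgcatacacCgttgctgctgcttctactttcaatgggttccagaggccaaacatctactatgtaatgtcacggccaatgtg
With reads of windows that occur once in the genome, 279 in small intestine and 401 in colon by cDNA fragmentation, the ratio of colon to small intestine was 1.30 (1.12 to 1.52). After rRNA depletion 53 and 122 such reads gave 1.35 (0.968 to 1.90). Colon stayed the higher tissue, and the interval of the rRNA-depleted value now included no difference.

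**Figure D4:**
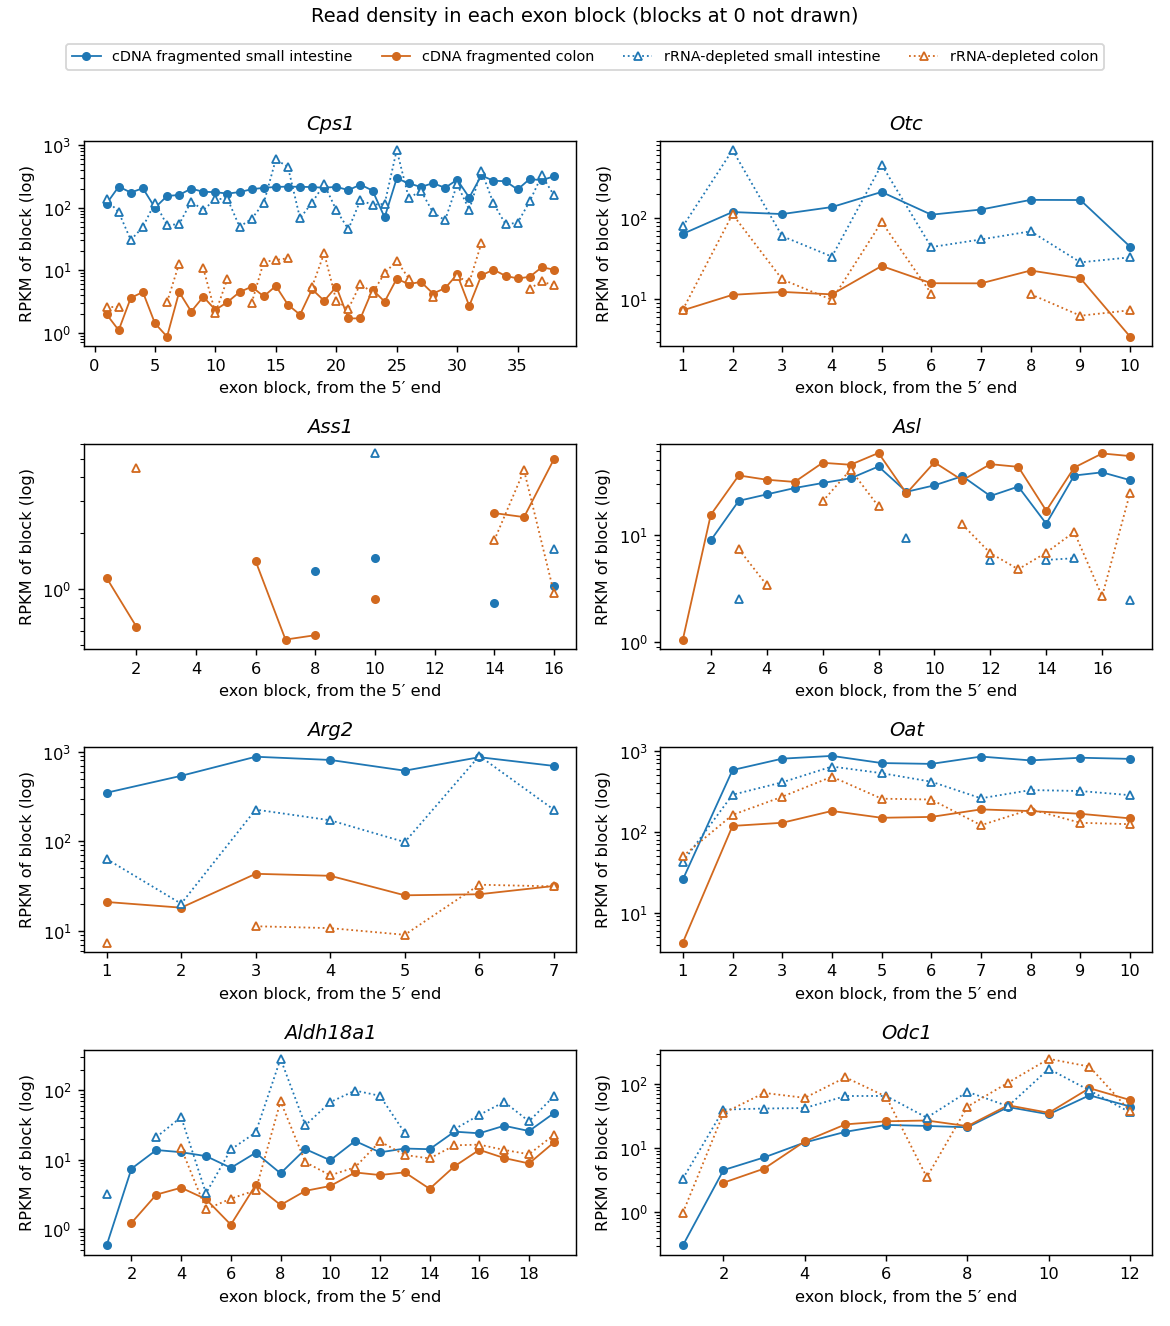
RPKM of each exon block (log axis) of the 8 genes, numbered from the 5' end, in the 4 libraries (blue small intestine, orange colon; filled circles and solid lines cDNA fragmented, open triangles and dotted lines rRNA-depleted). Blocks without reads are not drawn, which leaves gaps in the rRNA-depleted colon lines of Cps1 and Arg2. Where both tissues are drawn, the lines of small intestine and colon stay apart within each protocol for Cps1 and Arg2. Those of Odc1 and of Asl by cDNA fragmentation run close together, and the rRNA-depleted profiles are the more uneven ones.

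The order of the levels differed between the tissues. In small intestine Oat, Arg2, Cps1 and Otc were the 4 highest by RPKM, in this order, in both protocols and without overlap of counting intervals between neighbours. Counted per placeable window in place of exon bases, Arg2 was above Oat in the cDNA fragmented library. In colon Oat was again first, but Cps1 was seventh of 8 in both protocols. Asl and Odc1 followed Oat in the cDNA fragmented colon library and did not differ beyond counting error. Otc and Aldh18a1 in that library did not differ so either. In the rRNA-depleted colon library Odc1 came second. Otc, Aldh18a1, Arg2 and Asl followed, with overlapping counting intervals between neighbours among these 4, and Asl was above Cps1 without overlap. The protocols gave the same side for all 8 genes, although for Ass1 this rests on 2 and 4 reads after rRNA depletion. With size factors Odc1 and Ass1 lay on different sides in the 2 protocols. For Cps1, Otc, Oat, Asl and Aldh18a1 the counting intervals of the 2 ratios did not overlap, and no spread between mice is known to set this against.

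Of 51 other genes of these pathways 50 were found, and 35 of them were above 3 RPKM in either tissue in both protocols. Among the 37 that could be called by cDNA fragmentation 9 were called in small intestine and 1 in colon. After rRNA depletion these were 11 and 2 of 36. Over all genes the shares were the 5% and 5.87%, and the 5.27% and 9.17%, given above, so that the share called in colon was not above that of all genes in either protocol. Of the 35 that could be called in both protocols, 8 were past the rule in small intestine and 1 in colon in both, beside 3.65% and 4.03% over all such genes, and no gene was called in opposite directions. Their median log2 ratio, colon over small intestine, was -0.21 by cDNA fragmentation and -0.15 after rRNA depletion over the genes that could be called, beside 0.32 and 0.40 over all such genes.

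Of the 15 genes around the urea cycle, 7 could be called in both protocols and 3 were called in small intestine in both, beside 3.65% of all genes. After rRNA depletion alone Nags, which makes the activator of Cps1, was also called in small intestine, with a ratio of 9.03 (5.06 to 17.3), and Ddah1 in colon, with a ratio of 8.88 (5.51 to 15.2). By cDNA fragmentation the same tissues were higher, by ratios of 2.82 (2.23 to 3.58) for Nags and 3.585 (3.20 to 4.03) for Ddah1. Ddah1 missed the call there only through the 1 RPKM that the rule adds. Slc25a15, the carrier that brings ornithine into the mitochondrion, was at 55.2 and 4.53 RPKM in small intestine and colon by cDNA fragmentation and at 112 and 15.3 RPKM after rRNA depletion, with ratios of 12.2 (11 to 13.6) and 7.33 (6.23 to 8.65). Nos2, which makes nitric oxide and citrulline from arginine, was at 8.54 and 0.162 RPKM and at 15.4 and 0.576 RPKM. Its ratios were 52.8 (32.3 to 92.9) and 26.7 (13.1 to 63.2), with 16 and 8 reads in the colon libraries. Agmat, annotated as agmatinase, was at 5.10 and 0.201 RPKM and at 4.90 and 0.205 RPKM, the last of these from 1 read. Arg1, the arginase of liver cytosol, stayed below 3 RPKM in all 4 libraries.

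Of 7 genes of cationic amino acid transport 6 could be called, and 4 of these were called in each protocol, all in small intestine, beside 5% and 5.27% of all genes. Slc7a9, the light chain of the apical exchanger for cystine and basic amino acids, was at 282 and 4.62 RPKM in small intestine and colon by cDNA fragmentation and at 47.5 and 0.455 RPKM after rRNA depletion. Its ratio was 61.0 (53.4 to 70.1) in the first and 104 (35.1 to 510.2) in the second, where colon had 3 reads. Its heavy chain Slc3a1 had ratios of 9.81 (9.08 to 10.6) and 8.89 (7.41 to 10.7). Slc7a7, of the basolateral exporter, had ratios of 10.7 (9.99 to 11.5) and 3.63 (2.91 to 4.55), and its heavy chain Slc3a2 had ratios of 3.89 (3.56 to 4.25) and 4.52 (3.83 to 5.35).

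Of 12 genes of glutamine, glutamate, aspartate and proline 9 could be called in both protocols, and Aldh4a1 and Glul were called in both, in different tissues, beside 3.65% of all genes in small intestine and 4.03% in colon. After rRNA depletion alone Got1 and Prodh were also called in small intestine, with ratios of 5.65 and 5.58. By cDNA fragmentation their ratios were 2.455 and 2.69, on the same side. Aldh4a1, which oxidises the same semialdehyde to glutamate, was higher in small intestine by ratios of 4.31 (3.97 to 4.68) and 3.56 (2.91 to 4.36). Glul, glutamine synthetase, was at 7.63 and 43.5 RPKM in small intestine and colon by cDNA fragmentation and at 23.1 and 229 RPKM after rRNA depletion, so colon was higher by ratios of 5.71 (5.18 to 6.30) and 9.90 (8.30 to 11.9). Of 16 polyamine genes found beside Odc1, 14 could be called by cDNA fragmentation, of which 1 was called, Azin1 in small intestine with a ratio of 3.06, and 13 after rRNA depletion, of which 0 were called. So few genes cannot be set apart from the shares over all genes.

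**Figure D5:**
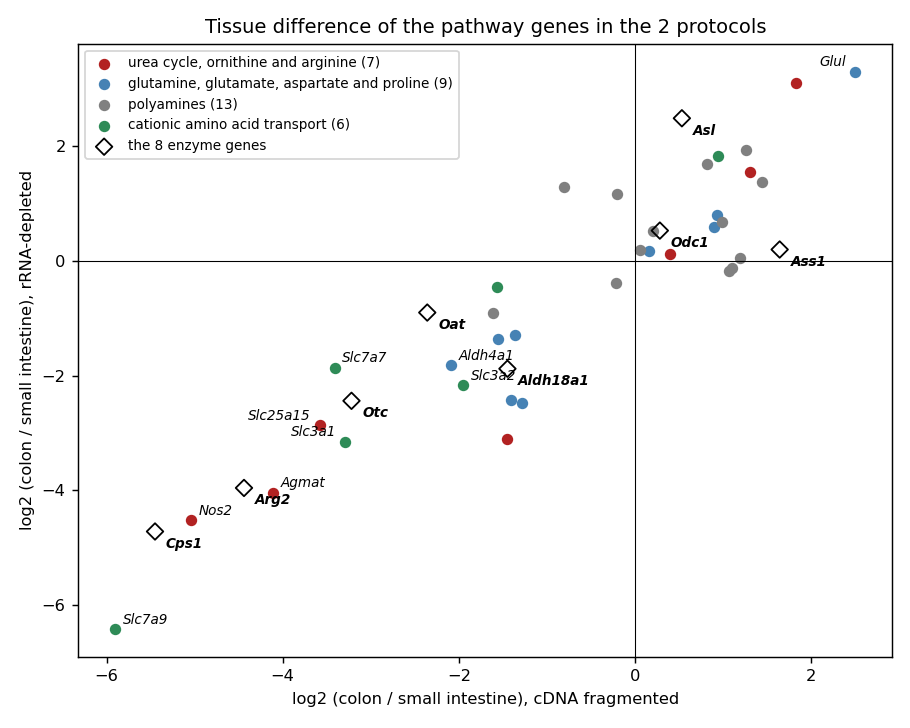
Log2 ratio of colon to small intestine by cDNA fragmentation (x axis) and after rRNA depletion (y axis), after 0.1 RPKM was added, for the 8 enzyme genes (diamonds) and the 35 other pathway genes above 3 RPKM in either tissue in both protocols (dots coloured by group, with the number of each in brackets); genes named among the dots are those past the 3-fold rule in both. Cps1, Arg2 and Otc lie low on the left with Slc7a9, Nos2, Agmat, Slc25a15 and Slc3a1, Glul lies at the upper right, and the polyamine genes spread from -1.61 to 1.44 on the x axis and from -0.91 to 1.94 on the y axis.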

How the data were processed

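The authors deposited, per the file headers and labels, the positions, strands and color mismatches of single SOLiD reads, not counts per gene. In their matching, the 35 colors of a read were placed on a reference of mm9 RefSeq exons and their junctions, up to 3 color mismatches were allowed, and reads with more than 1 placement were left out. The matching program is not given in the sources used here for these files. The labels give rRNA-depleted RNA for the second protocol, whereas in the study's text the RNA fragmented protocol starts from polyadenylated RNA. The total reads of the rRNA-depleted libraries, 36419942 and 37466674, are also not those that the study gives for its RNA fragmented libraries. The deposited tables give the positions of exons and junctions.

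Reads were counted per exon block with 3 bases of tolerance at its borders (Python 3.11.15, numpy 2.4.6, pandas 2.3.3), and blocks of overlapping genes were given to the gene with most exonic bases in GENCODE M1. Numbers of reads and start points equalled those of the authors' reports in all 4 libraries. Placements on junctions (0.754% to 0.822% of reads) were left out, since at most 0.0249% of them had 0 mismatches. Windows were searched among exons with bwa 0.7.19 and in the NCBIM37 genome, which is mm9, and sequences were read from that genome. Intervals are exact (Poisson for levels, Clopper-Pearson for ratios, scipy 1.17.1, 95%) and cover counting error only. For a count of 0 a limit of 3 reads was taken in place of such an interval. The 3-fold rule and the intervals were tested on simulated data. The members, lists and alternatives were chosen with earlier results of these data known. All members were named, and of the other pathway genes those called in both protocols in the same or in opposite directions; Arg1, Azin1, Ddah1, Gm5424, Got1, Nags, Prodh and Vti1b were named after their values had been seen.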

Additional observations from a re-analysis of the deposited data

Results flagged for a closer look

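Several signals lay in positions that the comparisons did not use, and each was above the 3 reads that a count of 0 allows. The exon block shared by Arg2 and Vti1b held 123 reads on the Arg2 strand in the rRNA-depleted small intestine library and 31 in the colon library. Gm5424, the near-identical counterpart of Ass1, held 93 and 423 reads in small intestine and colon in the cDNA fragmented libraries and 4 and 43 reads in the rRNA-depleted ones. Placements on exon-exon junctions of the 8 members numbered 1058 and 166 in the cDNA fragmented and 43 and 26 in the rRNA-depleted libraries. None of these junction placements (0 in all 4 libraries) was without a color mismatch, so they were not read as spliced transcripts.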

How the results depend on the processing

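The labels carry no replicate numbers, and leaving out a library would leave a protocol with 1 tissue. A model with tissue and protocol as terms, which would take the difference between the protocols for replicate error with 1 residual degree of freedom, was not fitted. No share over all genes was counted by start points. With start points in place of reads, 2 members in place of 4 passed the 3-fold rule in the cDNA fragmented libraries. There 98.4% of the possible start points of Arg2 and 91.9% of those of Oat were in use in small intestine. Beside their start points in colon, even full use would not have brought either gene to a call. The measure therefore could not test these 2 calls. The median log2 ratio of the members with start points became -0.86 in the cDNA fragmented and -1.07 in the rRNA-depleted libraries. With median-of-ratios size factors it became -2.30 and -1.73, and without Ass1 (chosen after seeing the data) -2.36 and -1.88, in the same order. With at most 1 color mismatch it became -2.19 in the rRNA-depleted libraries. There the ratios of all members but Ass1 stayed within their counting intervals, and no ratio could be given for Ass1. The shift of this median came mainly from Ass1, which had 2 and 4 reads before the limit on mismatches. Of 127 values of single members under the alternatives, 89 stayed within the counting interval and 6 changed the call. These were Arg2 (2.84) and Oat (1.43) by cDNA fragmentation and Aldh18a1 (2.70) after rRNA depletion, all with start points, Otc (3.42) after rRNA depletion with the last 1000 bases, Aldh18a1 (3.63) by cDNA fragmentation with size factors, and Ass1 with Gm5424 added by cDNA fragmentation, which was then called in colon at 0.247. A further 5 values changed sides, namely Odc1 by cDNA fragmentation with size factors (1.09, small intestine over colon) and after rRNA depletion with start points (1.02), and 3 of Ass1 after rRNA depletion. Some of the 89 values could not have moved. The last 1000 bases hold all 941 counted bases of Arg2. The rRNA-depleted reads of Otc, Ass1, Asl, Arg2 and Oat all lay on the gene strand. The rRNA-depleted interval of Ass1, 0.0773 to 5.96, was wide enough to hold every alternative ratio given. The thinned library, strand, junction, total, penalty and 2-fold alternatives moved no count of calls by over 1.5 times. The least precise ratios are those of Ass1 and Asl after rRNA depletion, with 2 and 6 reads in small intestine.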

Other observations

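Vti1b, a SNARE protein of vesicle fusion, stood at 293 RPKM in small intestine and 41.7 RPKM in colon in the cDNA fragmented libraries when the block that it shares with Arg2 was counted. Over its 5 other blocks it stood at 41.3 and 39.9 RPKM. In the rRNA-depleted libraries these levels were 63.8 and 43.6 RPKM with the shared block and 29.1 and 51.9 RPKM without it.

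The level after rRNA depletion was below that by cDNA fragmentation in both tissues for Asl (0.0695 times for small intestine, 0.282 times for colon) and Arg2 (0.339 and 0.473 times). It was above it in both tissues for Aldh18a1 (2.21 and 1.64 times), Odc1 (1.56 and 1.86 times) and Otc (1.23 and 2.12 times). Whether these factors come from the protocols or from different mice cannot be told apart. The fullest start point of Otc was the same in both rRNA-depleted libraries, whereas for Cps1, Arg2, Oat, Odc1 and Aldh18a1 the fullest start point of small intestine was not the fullest of colon.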
